A study of Homo sapiens with 6 samples.

Results

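The comparison is the step from 1 h to 3 h of coculture in Caco-2 cells, a human colorectal adenocarcinoma line whose polarised cells resemble the absorptive cells of the small intestine. Its members are the array labelled coculture_3h and the array labelled coculture_1h, which are 2 of the 6 arrays of the time course, and every gene measured on them. The Caco-2 cells had been kept for 14 days on a porous support, which was then set over THP-1 cells, a monocytic leukaemia line made macrophage-like by 4 days of phorbol myristate acetate (PMA) in plates with 12 wells. Both arrays carry RNA of this single line, made from 4 µg of total RNA each, and differ in the labels only by the time above the THP-1 cells. The other 4 arrays are those of 0, 6, 24 and 48 h. An array of Caco-2 cells kept for the same time without THP-1 cells was not analysed here, so effects of coculture and of time or handling cannot be told apart in this step. The labels do not say whether the arrays came from separate cultures or from one, and with 1 array a side there is no test, no error and no p-value for any value below.

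Values are MAS5 signals, in arbitrary units on a linear scale, from Affymetrix HG-U133 Plus 2.0 arrays. A gene is represented by its brightest probe set, by mean log2 signal over the 6 arrays, and signals under 16.2, the pooled median of all values, were set to that floor. Of 19775 genes, 12990 were above the floor at 1 h, at 3 h or at both, and these are called measured. A gene is said to have risen or fallen where the arrays differed at least 2-fold and the brighter was above the floor. This is a rule of size, and the words carry no statement on significance. A fold against an array at the floor is a lower bound.

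Macrophage-like cells release cytokines such as TNF and IL-1 that act on the epithelium above them. In epithelial cells these activate NF-kB and the MAP kinases, which switch on immediate early genes without need of new protein, among them chemokines, transcription factors and inhibitors of the same pathways. A slower set follows once the first products have been made, with surface receptors, proteases and further feedback inhibitors, while part of the first set is shut off and its short-lived mRNA is degraded.

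In the step from 1 h to 3 h, the genes that rose included the Ras and EGF receptor inhibitors SPRED1 and ERRFI1, the collagenase MMP1, the integrin subunit ITGA2 and the receptors TNFRSF10A, IL6R and IL4R. No measured chemokine or NF-kB inhibitor was past 2-fold, though single members had log2 ratios from -0.80 to 0.83. ID1, the arrestin genes TXNIP and ARRDC4 and 4 of 23 lineage transcription factors fell. Of these factors, CDX2 and VDR were below their 0 h signals at 3 h, ONECUT2 was near its own and ELF3 above. Immediate early genes were on both sides, with FOS and PLK2 among the rises and NR4A1 and KLF10 among the falls. Of the 12990 measured genes 198 (1.52%) were at least 2-fold higher and 194 (1.49%) at least 2-fold lower at 3 h. At such shares, no call among 10 chemokines and 14 NF-kB inhibitors does not set these lists apart. For 57 of the 198 the 1 h array lay at the floor, and for 51 of the 194 the 3 h array did. Among the 7511 genes with a signal of at least 100 on the brighter array, 71 (0.945%) rose and 60 (0.799%) fell. The median log2 ratio was -0.04 over all measured genes and -0.06 over those 7511, so each list below is read against a centre close to 0. Counts of calls in a list are read beside the shares of 1.52% and 1.49%.

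**Figure D1:**
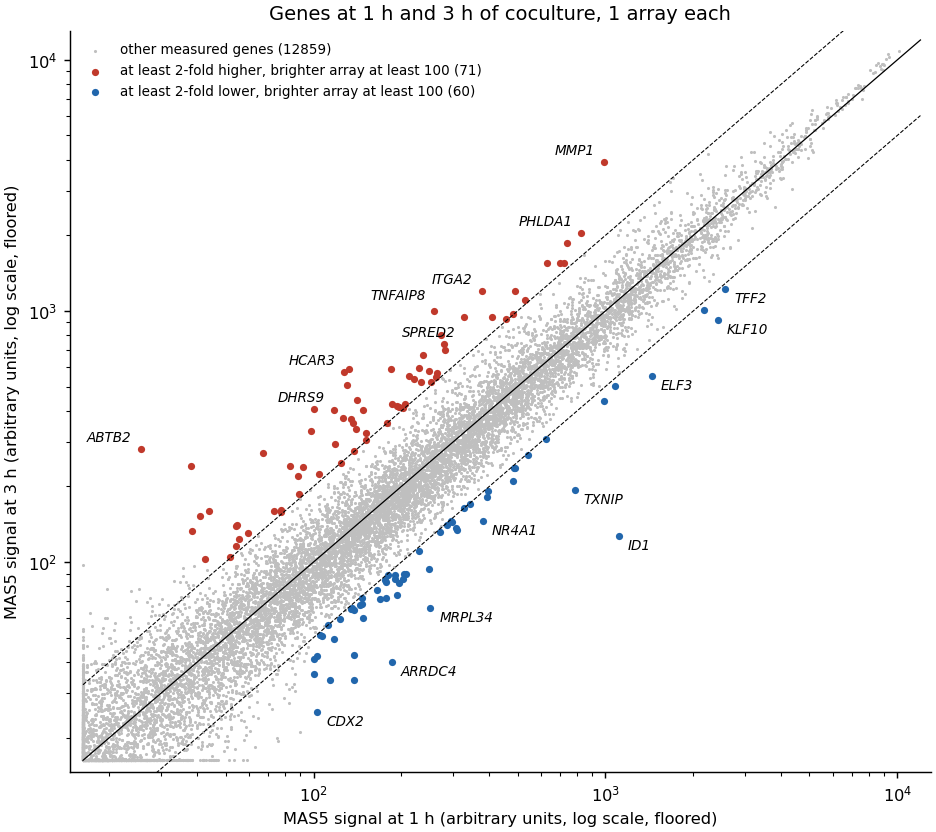
MAS5 signal at 1 h (horizontal) against 3 h (vertical) for the 12990 measured genes, both on log axes, 1 array a time and floored at 16.2. The solid line marks equal signals and the dashed lines a 2-fold difference; the 71 red genes are those at least 2-fold higher and the 60 blue genes those at least 2-fold lower with a brighter array of at least 100, from ABTB2 at the top left to ID1 and CDX2 at the bottom right.

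The step was of middling size beside its neighbours. Among genes whose brighter array reached 100, 205 of 7641 (2.68%) differed at least 2-fold in either direction between 0 and 1 h, 150 of them higher and 55 lower. Between 3 and 6 h 56 of 7308 (0.766%) did, between 6 and 24 h 256 of 7376 (3.47%), and between 24 and 48 h 96 of 7374 (1.3%). The times between arrays are unequal, and neighbouring steps share an array with this one: a high value at 1 h enters the first step as a rise and this one as a fall.

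How far a single log2 ratio can be read depends on the signal. Between probe sets of the same gene the robust SD of the step's log2 ratio was 0.43 for signals up to 32, 0.37 from 32 to 64, 0.25 from 128 to 256 and 0.11 above 1024. Probe sets of a gene share both arrays, so this spread describes the measurement and leaves out the variation between cultures. From 32 to 64 there were 102 rises and 107 falls, 11.4% of 1833 genes, against 9 rises and 6 falls, 1.14% of 1312 genes, above 1024. The genes described below are mostly those whose brighter array reached 100.

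**Figure D2:**
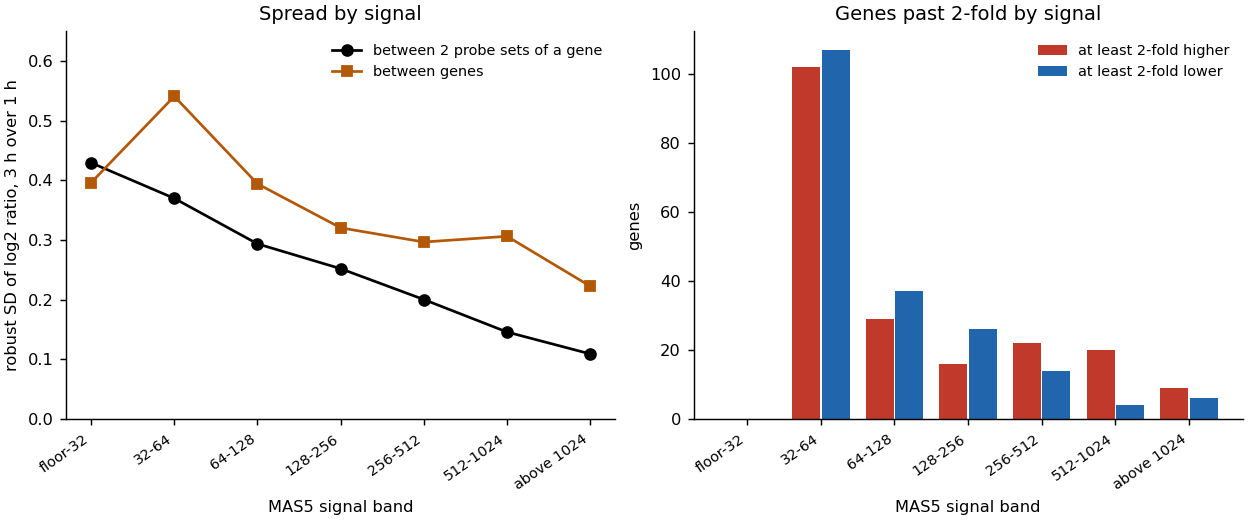
Left, robust SD of the log2 ratio of 3 h over 1 h in bands of MAS5 signal, between probe sets of a gene (circles) and between genes (squares); right, number of genes at least 2-fold higher or lower in each band. The spread between probe sets falls from 0.43 to 0.11 with rising signal, and 102 of the rises and 107 of the falls lie between signals of 32 and 64.

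Overall signal was alike, with array medians of 15.3 at 1 h and 16.7 at 3 h, the lowest and the highest of the 6 arrays, and with 12017 and 12290 genes over the floor. For ACTB, the control probe set at the 3' end exceeded that at the 5' end by 27.7-fold at 1 h and 22.9-fold at 3 h, and by as much as 51.2-fold at 0 h. This ratio bears on RNA integrity and labelling, and at these values the ACTB signal was strongly weighted to the 3' end. The same ratio of GAPDH went the other way, from 3.81 to 4.29. All 15 enterocyte markers with a probe set, VIL1 among them, were above the floor on both arrays, with a summed signal of 25521 at 1 h and 25952 at 3 h. Of these 15, 6 had log2 ratios above 0 and 9 below, from -2.02 for CDX2 to 1.05 for KRT20. Of 20 macrophage and monocyte markers with a probe set, 8 were above the floor at 1 h and 6 at 3 h, with summed signals of 873 and 648. PTPRC, the pan-leukocyte marker CD45, had signals of 8.56 and 1.96, under the floor, as had SPI1 and TYROBP, and AIF1 fell from 229 to 111. LYZ, at 296 and 262, MSR1, at 102 and 91.2, LAPTM5, at 75.9 and 48.8, and CD14, at 51.3 and 56.1, were above it on both arrays. Of the 8 measured macrophage and monocyte markers 2 had log2 ratios above 0 and 6 below. The part of the macrophage signal in the results was not tested. Of 9 goblet and enteroendocrine markers 6 were above the floor at 1 h and 5 at 3 h. The part of RNA quality in the results was not tested. In such arrays, fewer cells of a type and less RNA per cell cannot be told apart.

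SPRED1, SPRED2, ERRFI1 and LRIG3 rose in the step. SPRED1 and SPRED2 encode membrane-bound inhibitors of the activation of RAF by Ras, and ERRFI1 encodes a cytoplasmic inhibitor of the EGF receptor kinase. SPRED1 had signals of 124, 186, 426 and 516 at 0, 1, 3 and 6 h, and rose 2.30-fold in the step. ERRFI1 went from 399 at 0 h through 698 at 1 h to 1556 at 3 h, a 2.23-fold rise, and was 1331 at 6 h. LRIG3, a transmembrane protein of a family that regulates receptor tyrosine kinases, went from 89.3 at 1 h to 187 at 3 h. For these 3 genes the 3 h signal was above that of 0 and of 1 h.

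SPRED2 had signals of 367, 329, 946 and 835 at the same times. Its 2.88-fold rise was seen in its brightest probe set, and the other gave a log2 ratio of 0.12, so the rise of SPRED2 rests on 1 probe set. These 4 were the only members past 2-fold among 16 measured genes of the list of EGF receptor ligands and Ras feedback, and no member fell, with 9 above 0 and 7 below. The median log2 ratio of the list was 0.11 (0.56 without probe sets that may match several transcripts), beside -0.04 over all genes. ERBB2, a receptor of the EGF receptor family, had the lowest log2 ratio of the list, -0.66. The brightest probe sets of EGFR itself and of the ligand genes EREG and HBEGF gave small ratios. EGFR had a log2 ratio of -0.04, the ligand genes EREG and HBEGF had -0.10 and 0.07, and EPHA2, a receptor kinase under Ras control, had -0.13 at signals of 378 and 347. The other probe set of HBEGF gave -0.49.

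Genes of the phosphatases that switch off MAP kinases gave no call in the step. DUSP6, the ERK phosphatase, had signals of 963, 2135, 3312 and 3389 at 0, 1, 3 and 6 h, a log2 ratio of 0.63 for the step. DUSP1 was at 1865 and 1853, with log2 ratios from -0.21 to 0.71 over its probe sets. None of the 12 measured members was past 2-fold, beside 1.52% risen and 1.49% fallen over all measured genes. Of the 12, 6 were above 0 and 6 below, and the lowest was DUSP7 at -0.61 and the highest DUSP4 at 0.70.

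**Figure D3:**
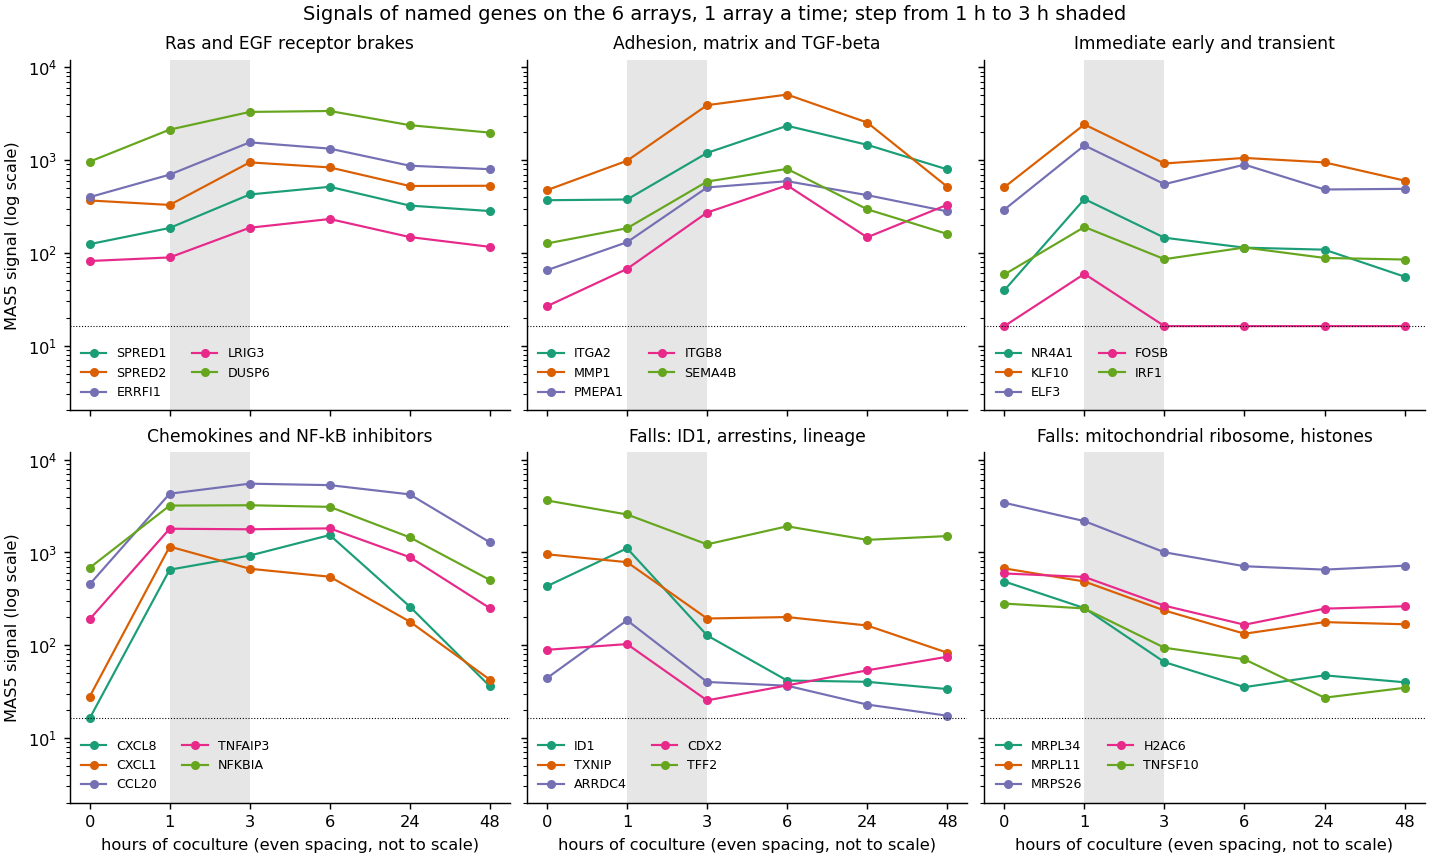
MAS5 signals of 30 named genes on the 6 arrays, 1 array a time, on a log axis with the times evenly spaced; the shaded band is the step from 1 h to 3 h and the dotted line the floor of 16.2, to which lower signals were set. The Ras and EGF receptor brakes and the adhesion and matrix genes climb inside the band, the 5 chemokine and NF-kB inhibitor genes shown have most of their climb before it, and the genes of the right and lower middle panels descend within it.

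Adhesion and matrix genes held some of the largest rises. MMP1, the interstitial collagenase, had signals of 475, 985, 3917, 5096, 2547 and 517 on the arrays from 0 to 48 h. It rose 3.98-fold in the step and was the only gene past 2-fold of 15 measured matrix proteases and members of the urokinase system. The 48 h signal was again near that of 0 h.

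ITGA2, the alpha 2 subunit of a collagen-binding integrin, was at 370 and 376 at 0 and 1 h and at 1197 and 2349 at 3 and 6 h. Its 3.18-fold rise therefore came after the first hour, and its other probe set gave the same log2 ratio of 1.67. ITGB8, whose product pairs with alpha v and can activate latent TGF-beta, went from 67.2 at 1 h to 272 at 3 h. The probe sets of ITGB8 disagreed, with log2 ratios from -0.22 to 2.02, and the median over them reverses the direction. Of 22 measured integrins, laminins and cytoskeletal genes these 2 were called higher and none lower, with a median of 0.12. Over all measured genes 1.52% were called higher and 1.49% lower.

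SEMA4B, a membrane semaphorin, went from 184 to 588 and rose 3.19-fold. PLXNA2, a semaphorin receptor, went from 38.3 to 132, and both of its probe sets rose, with log2 ratios of 1.79 and 1.98. PMEPA1, a TGF-beta target that inhibits SMAD signalling, had signals of 65.1, 130, 508 and 593 at 0, 1, 3 and 6 h. The probe sets of PMEPA1 gave log2 ratios from 0.44 to 1.96, all above 0.

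Some receptors of cytokines rose. TNFRSF10A, a death receptor for TRAIL, went from 119 to 296, and its 3 probe sets gave log2 ratios from 1.26 to 1.46. TNFRSF11B, the secreted decoy receptor osteoprotegerin that binds RANKL and TRAIL, went from 233 to 519. Both stayed high at 6 h, with signals of 279 and 546. TNFRSF21, TNFRSF10D and TNFRSF10B, further members of the receptor family, had log2 ratios of 0.85, 0.84 and 0.76, short of 2-fold. In all, 2 of 16 measured TNF and death receptors rose and none fell, with 13 above 0 and a median of 0.27 (0.25 to 0.30 under the alternatives), beside 1.52% risen, 45.2% above 0 and a median of -0.04 over all measured genes. TNFSF10, which encodes TRAIL itself, moved the other way: its signals were 281, 249, 93.9 and 70.4 at 0, 1, 3 and 6 h, a 2.65-fold fall. Its other probe sets gave log2 ratios up to 0.01.

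The receptor chains IL6R and IL4R, for interleukin 6 and for interleukins 4 and 13, rose 2.17-fold and 2.13-fold. IL6R had signals of 151 at 1 h and 327 at 3 h, and IL4R of 196 and 416, and for both the 0 h signal was close to that of 1 h. They were 2 of 28 measured cytokine receptors, SOCS and PIM genes, of which none fell, beside 1.52% risen and 1.49% fallen over all measured genes. IRAK2, a kinase of the Toll-like and IL-1 receptor pathway, had signals of 131, 221, 534 and 697 at 0, 1, 3 and 6 h and rose 2.41-fold. TICAM1, the adaptor TRIF, went from 34.9 to 83.2. TRAF6, a ubiquitin ligase of the same pathway, went from 55.7 to 123, but its other probe set gave -0.95. NOD1, a cytoplasmic sensor of bacterial peptidoglycan, fell from 44.8 to 21.5, at low signals. Of the 16 measured genes of Toll-like and IL-1 receptor signalling these were the 3 rises and the 1 fall, to be read beside the same shares.

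TNFAIP8, a TNF-induced regulator of cell death, had signals of 251, 260, 1002 and 1478 at 0, 1, 3 and 6 h. It rose 3.86-fold in the step with hardly any change before it, and the lowest of its 3 probe sets gave a log2 ratio of 1.02. It led the 14 measured survival and adhesion targets of NF-kB, of which 2 rose and 1 fell, with a median of 0.47. Over the 9 members whose brighter array reached 100 that median was 0.02. The second of the rises, CSF1, the macrophage growth factor, had low signals of 28.9, 15.1, 38.5 and 26.5 at 0, 1, 3 and 6 h. Of these only the 1 h signal lay under the floor. ICAM1, an adhesion molecule for leukocytes, had signals of 277 and 387 and stayed short of 2-fold. The probe sets of ICAM1 disagreed, with log2 ratios from -0.67 to 0.48. The 17 measured cytokine and interleukin genes had a median of 0.43, or 0.13 over the 6 whose brighter array reached 100, with 1 rise, CSF1, and 1 fall, TNFSF10. TNF was under the floor on both arrays, at 3.15 and 11.1, and IL6 had 22.9 at 1 h and 6.79 at 3 h.

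No chemokine gene and no inhibitor of NF-kB was past 2-fold in the step. Over all measured genes 1.52% rose and 1.49% fell, so lists this short can hold no call at the general share. CXCL8, a neutrophil attractant, had signals of 8.50, 652, 925 and 1541 at 0, 1, 3 and 6 h, a log2 ratio of 0.51 for the step. Its other probe set gave 0.95. CXCL1, another neutrophil attractant, had 27.8, 1158, 667 and 548, a log2 ratio of -0.79. CXCL2 was at 890 and 948 at 1 and 3 h, CXCL3 at 256 and 221, and CCL20, which attracts cells bearing CCR6, at 4303 and 5520. CXCL10, an attractant of T cells, had the highest ratio of the list, 0.83, with signals of 133 and 237. Of the 10 measured chemokines 6 were above 0 and 4 below. Their median was 0.23, but 0.00 over the 8 members whose brighter array reached 100. CXCL1, CXCL2 and CXCL3 are near-identical copies, so their probe sets may share signal.

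In its brightest probe set NFKBIA, which keeps NF-kB in the cytoplasm, had signals of 3203, 3230 and 3103 at 1, 3 and 6 h. TNFAIP3, a ubiquitin-editing inhibitor, had 1802, 1778 and 1819. Both ratios for the step were close to 0, but the other probe set gave 0.60 for NFKBIA and 0.30 for TNFAIP3. IER3 went from 3763 to 3312, and RELB, an NF-kB subunit, from 99.7 to 129. Of 14 measured NF-kB inhibitors and feedback genes none was past 2-fold, with values from -0.80 for NFKBID to 0.78 for TRAF3 and a median of 0.02. Many of these genes are known NF-kB targets, and the promoter bases that match the NF-kB motif GGANTTNCC on either strand are printed here for 7 named genes in whose promoter a match was found. They were chosen for that match, and the window of CCL20 held none. Each line gives 29 bases of RefSeq sequence, 5' to 3' on the strand of the gene, with the match in capitals.
CXCL1: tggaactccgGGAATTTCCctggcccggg
CXCL2: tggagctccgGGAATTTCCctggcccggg
CXCL3: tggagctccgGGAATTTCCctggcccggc
CXCL8: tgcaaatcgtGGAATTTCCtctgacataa
NFKBIA: tgactggcttGGAAATTCCccgagcctga
TNFAIP3: acgtgactttGGAAAGTCCcgtggaaatc
ICAM1: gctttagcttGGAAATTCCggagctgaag
In assembly GRCh38.p14 they lie at chr4:73869305-73869333 (plus strand), chr4:74099254-74099282 (minus), chr4:74038749-74038777 (minus), chr4:73740468-73740496 (plus), chr14:35404812-35404840 (minus), chr6:137867182-137867210 (plus) and chr19:10270924-10270952 (plus), in the order of the lines. The first base of the match lay 67 to 91 bases before the annotated start for 6 of the genes and 186 before that of ICAM1. CXCL1, CXCL2, CXCL3 and CXCL8 have the same 9 letters, and NFKBIA and ICAM1 have their reverse complement.

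Such a match was found within 250 bases before to 50 after the start in 6 of 8 chemokine genes with a promoter in the table, and in 3 of 11 NF-kB inhibitors. Over all 27305 promoters the share was 4.23%, and over the 10522 measured genes with a promoter 4.18%. Of the genes that moved in the step with a brighter array of at least 100, 4 of 58 that rose (6.90%) and 3 of 47 that fell (6.38%) had one. Over all measured genes with such a brighter array the share was 4.42%. The AP-1 motif TGANTCA was in 3 of the 58 and 1 of the 47, beside 4.13% of measured genes with such a brighter array. The cyclic AMP motif TGACGTCA was in none and 2, beside 3.46% of the same genes. The CArG box of the serum response factor was in 2 and none, beside 1.10%. A match describes letters in a window and shows no binding, and the shares were not tested.

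Immediate early genes were divided in the step. FOS, the AP-1 subunit that is the textbook early gene, had signals of 85.4, 140, 338 and 502 at 0, 1, 3 and 6 h and rose 2.41-fold. FOSB, its relative, had 59.4 at 1 h and lay under the floor at 0, 3 and 6 h, so it fell at least 3.66-fold. JUN, JUNB and ATF3, further factors of the family, had log2 ratios of 0.25, -0.37 and -0.71. Over probe sets the values ran from -0.39 to 0.25 for JUN and from -0.71 to 0.04 for ATF3. Of 15 measured FOS, JUN and ATF factors 1 rose and 1 fell.

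NR4A1, an orphan nuclear receptor, had signals of 39.5, 381, 146 and 114 at 0, 1, 3 and 6 h, a 2.61-fold fall after the early peak. Its other probe set gave a log2 ratio of -0.46. KLF10, a Kruppel-like repressor first found as a TGF-beta early gene, had 511, 2427, 921 and 1057 at the same times and fell 2.64-fold. EGR1 was at 4071 at 3 h after 4944 at 1 h, a log2 ratio of -0.28, and its promoter window held 2 CArG boxes. The probe sets of EGR1 gave log2 ratios from -0.67 to -0.28, all short of 2-fold. KLF2 fell from 84.1 to 31.7. On the side of the rises, PLK2, a stress-induced kinase, went from 136 to 359, and PHLDA1 and BHLHE40, added after their values were seen to complete the count, rose with log2 ratios of 1.30 and 1.11. The 32 measured genes of this list thus held 3 rises and 3 falls, with a median of 0.02, beside 1.52% risen and 1.49% fallen over all measured genes.

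IRF1, an interferon-response factor, and ELF3, an epithelial ETS factor, rose to 1 h and fell in the step, as NR4A1 did. Unlike NR4A1, both were higher at 6 h than at 3 h. IRF1 had signals of 58.5, 190, 85.6 and 114 at 0, 1, 3 and 6 h, and its other probe set gave a log2 ratio of -0.22 for the step. ELF3 had 293, 1441, 551 and 895, and its 3 probe sets gave log2 ratios from -1.39 to -1.13. For both genes the 1 h array stood above those of 0, 3 and 6 h. The fall in the step and the rise before it share that array.

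ID1, a helix-loop-helix protein that blocks differentiation factors and is a direct target of BMP signalling, gave the largest fall. Its signals on the arrays from 0 to 48 h were 433, 1110, 128, 41.6, 40.3 and 33.6. The fall was 8.70-fold in the step, and the 3 h signal was below that of 0 h as well. The related ID2 went from 1497 to 844, a log2 ratio of -0.83, and ID3 was at 48.8 and 49.7. BMP2, a ligand that induces ID genes, went from 1316 to 2305, short of 2-fold. In the list of ID genes and TGF-beta or BMP feedback, ID1 was the 1 fall and PMEPA1 the 1 rise among 27 measured members, with a median of 0.13.

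The alpha-arrestins TXNIP and ARRDC4 both fell. TXNIP, which binds thioredoxin and limits glucose uptake, had signals of 955, 786, 194, 201, 163 and 83.0 from 0 to 48 h. Its 3 probe sets gave log2 ratios from -2.02 to -0.91, so all were lower at 3 h. ARRDC4, its close relative, had 44.2, 186, 40.1 and 36.6 at 0, 1, 3 and 6 h and fell 4.63-fold. TXNIP fell from a signal near that of 0 h, whereas ARRDC4 fell from a single high value at 1 h. Their relative ARRDC3 moved the other way, from 147 to 405, and was chosen after its values were seen. Both TXNIP and ARRDC4 are known to answer to glucose through MondoA or ChREBP, which bind pairs of E-box-like stretches. The 250 bases before each start are printed with matches to CACGNG on either strand in capitals. This motif was chosen after the values and the TXNIP sequence were seen.
TXNIP: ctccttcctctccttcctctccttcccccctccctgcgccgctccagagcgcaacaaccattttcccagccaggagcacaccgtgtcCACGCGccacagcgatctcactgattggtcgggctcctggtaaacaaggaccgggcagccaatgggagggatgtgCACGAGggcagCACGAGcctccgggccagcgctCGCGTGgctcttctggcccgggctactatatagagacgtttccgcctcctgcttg
ARRDC4: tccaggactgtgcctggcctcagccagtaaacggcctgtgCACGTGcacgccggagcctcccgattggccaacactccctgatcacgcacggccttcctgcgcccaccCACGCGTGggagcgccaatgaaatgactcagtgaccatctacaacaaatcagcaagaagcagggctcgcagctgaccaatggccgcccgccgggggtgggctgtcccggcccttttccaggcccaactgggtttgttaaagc
They are from RefSeq, assembly GRCh38.p14, at chr1:145996580-145996829 on the minus strand and chr15:97960453-97960702 on the plus strand. TXNIP holds 4 matches, beginning 163, 88, 77 and 55 bases before the start. ARRDC4 holds 3, at 210, 142 and 140 bases, and the last of these overlap. At least 1 match was in 26.5% of the 27305 windows of the same length, at least 2 in 6.34% and at least 3 in 1.44%. In the 300-base promoters, 19 of 47 genes that fell and 23 of 58 that rose held one. Beside this stand 43.5% of measured genes whose brighter array reached 100 and 41.0% of all measured genes. Over all 27305 promoters it was 30.4%, so the shares of the windows above are low for measured genes.

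Redox and stress genes beside them moved singly. SLC7A11, the cystine and glutamate exchanger, had signals of 272, 283, 700 and 708 at 0, 1, 3 and 6 h, rose 2.47-fold and had log2 ratios of 1.31 and 1.36 in its 2 probe sets. Among 22 measured NRF2 targets and antioxidants it was the only rise and TXNIP the only fall. DDIT4, an inhibitor of mTORC1, went from 1264 at 0 h to 740 at 1 h and 1859 at 3 h. CHAC1, which degrades glutathione, had 47.1, 19.7, 78.1 and 48.7 at 0, 1, 3 and 6 h, the lowest of these at 1 h. PPP1R15A, the subunit that guides a phosphatase to eIF2 alpha, fell from 394 to 182, with log2 ratios of -1.12 and -1.09 in its 2 probe sets. HILPDA, a hypoxia-induced protein of lipid droplets, had 554, 132, 590 and 1191 at 0, 1, 3 and 6 h, so that its 4.47-fold rise brought it back to the 0 h signal. It was the only call among 31 measured hypoxia and glycolysis genes, whose median was -0.02.

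ABTB2, which encodes a protein with ankyrin and BTB domains, gave the largest rise of the step. Its signals from 0 to 48 h were 39.3, 25.6, 282, 279, 124 and 81.6, a rise by 3.46 on the log2 scale in the step. It has 1 probe set above the floor. HCAR3, a receptor for hydroxylated fatty acids with a near-identical neighbour gene that its probes may also match, had 75.8, 127, 570 and 326 at 0, 1, 3 and 6 h. DHRS9, a retinol-oxidising dehydrogenase, had 42.6, 118, 405 and 499, with log2 ratios of 1.68 to 1.97 in its 3 probe sets. Both HCAR3 and DHRS9 were below their 1 h signals at 48 h, at 45.7 and 34.5.

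Among the other large rises were HKDC1, a hexokinase-like protein, from 98.0 to 331, and SGMS2, a sphingomyelin synthase, from 141 to 440. RAB31, a GTPase of vesicle traffic, went from 43.9 to 159. TCIM, a small transcriptional regulator, had signals of 14.7, 126, 375 and 90.9 at 0, 1, 3 and 6 h and so was highest at 3 h. HKDC1 had probe sets from 0.55 to 1.76, and SGMS2 from 1.52 to 2.68.

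**Figure D4:**
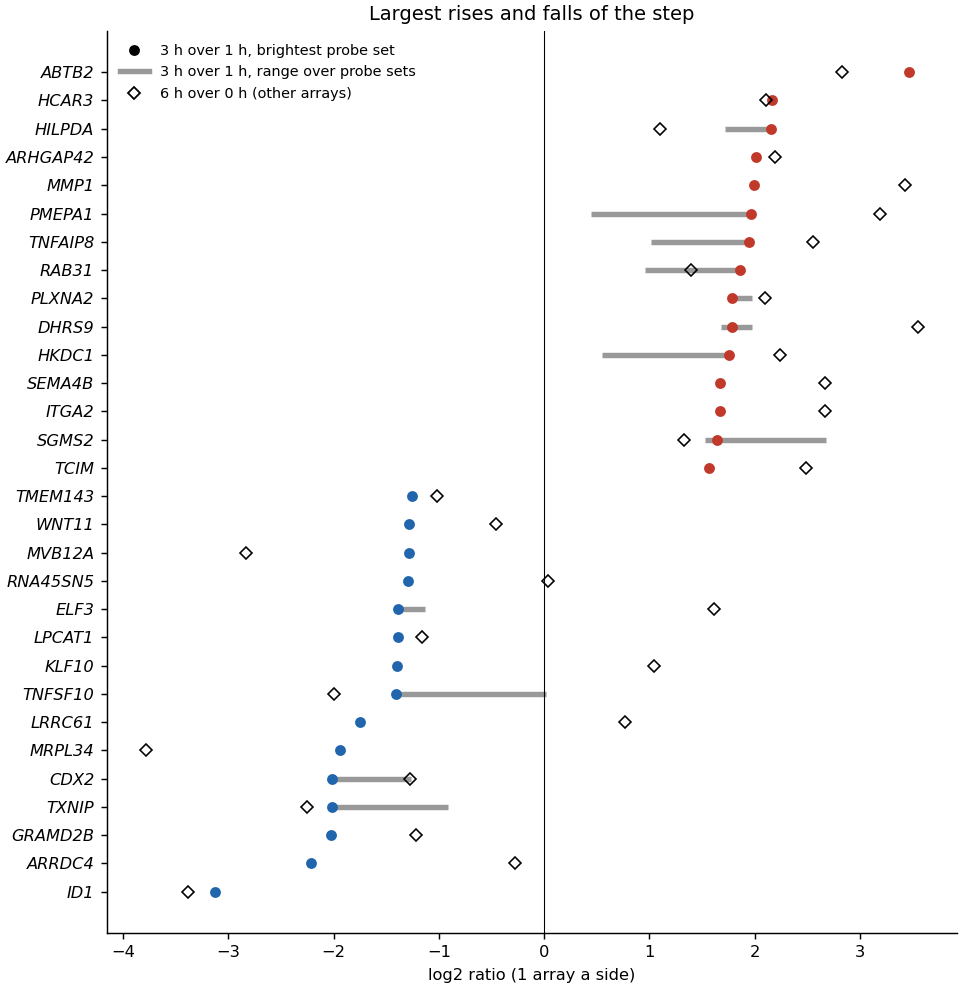
Log2 ratio of 3 h over 1 h for the 15 largest rises (red) and 15 largest falls (blue) among eligible genes, 1 array a side; grey bars span the gene's probe sets above the floor and open diamonds give the log2 ratio of 6 h over 0 h, from arrays the step did not use. The diamonds of all 15 rises lie above 0; among the falls those of ELF3, KLF10, LRRC61 and RNA45SN5 lie above 0 and the others below.

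CDX2, VDR, ONECUT2 and ELF3 fell among the intestinal and hepatic lineage factors. CDX2, the homeobox factor of intestinal identity, had signals of 89.2, 103, 25.4, 36.9, 53.5 and 75.0 from 0 to 48 h. It fell 4.05-fold, its second probe set gave a log2 ratio of -1.26, and it approached the starting signal again by 48 h. VDR, the vitamin D receptor, had 424, 488, 236 and 300 at 0, 1, 3 and 6 h, with all 4 probe sets below 0 (-1.05 to -0.21). ONECUT2 had 16.4, 44.8 and 16.9 at 0, 1 and 3 h, close to the floor at 0 and 3 h. At 3 h CDX2 and VDR were below their 0 h signals, ONECUT2 was near its own, and ELF3, at 551, was above its 293. The 23 measured lineage factors held these 4 falls and no rise, beside 1.49% fallen over all measured genes, and 8 of the 23 were above 0. Their median was -0.11, and KLF5, HNF4G and KLF4 had the highest ratios, 0.99, 0.73 and 0.64.

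Genes of mature enterocyte function had other values. Of 26 measured brush border and absorptive genes 2 rose and none fell, with a median of 0.02, beside 1.52% risen and 1.49% fallen over all measured genes. The rises were KRT20, a keratin of differentiated enterocytes, from 263 to 545, and CUBN, the receptor cubilin, from 17.4 to 55.7, near the floor. VIL1, the microvillus protein villin, was at 2257 and 2328. TFF2, a trefoil peptide of mucus-secreting cells, had signals of 3636, 2568, 1223 and 1915 at 0, 1, 3 and 6 h and fell 2.10-fold. It was the 1 fall of 25 measured genes of mucosal defence, and PLA2G2A, an antimicrobial phospholipase, at 18.9 and 52.3, the 1 rise.

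Genes of the mitochondrial ribosome were mostly below 0 in the step. Of 75 measured members 63 had a lower signal at 3 h, beside 7114 of the 12990 measured genes, and 3 fell while none rose. MRPL34 had signals of 486, 251, 65.7 and 35.3 at 0, 1, 3 and 6 h, MRPS26 had 3433, 2178, 1004 and 710, and MRPL11 had 673, 486, 237 and 133. All 3 descended at each of these times, so the step was one section of a longer decline. Each of the 3 rests on 1 probe set. The list's median was -0.30, and -0.23 to -0.30 under the alternatives.

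Of 45 measured genes of the respiratory chain and ATP synthase, 41 were below 0 and none was past 2-fold, with a median of -0.16 and a range from -0.74 for ATP5F1D to 0.21 for COX7C. Cytosolic ribosomal proteins gave no call among 52 members and a median of 0.08, or -0.03 after quantile normalization. DNA replication and mitosis genes had a median of -0.21 over 40 members, 30 of them below 0, with no call.

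Histone genes had the lowest median of the 38 lists, -0.70 over 11 measured members. H2AC6, a histone H2A gene, had signals of 593, 545, 267 and 166 at 0, 1, 3 and 6 h and fell 2.04-fold. H2BC21, a histone H2B gene, fell from 88.9 to 43.6. Of the 11, 10 were below 0, and MACROH2A1 at 0.02 was the exception. H4C8 and H1-2 had signals of 33.8 and 26.5 at 1 h, so part of the list lay near the floor. Histone genes are close copies of each other, and without probe sets that may match several transcripts the median was -0.25.

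**Figure D5:**
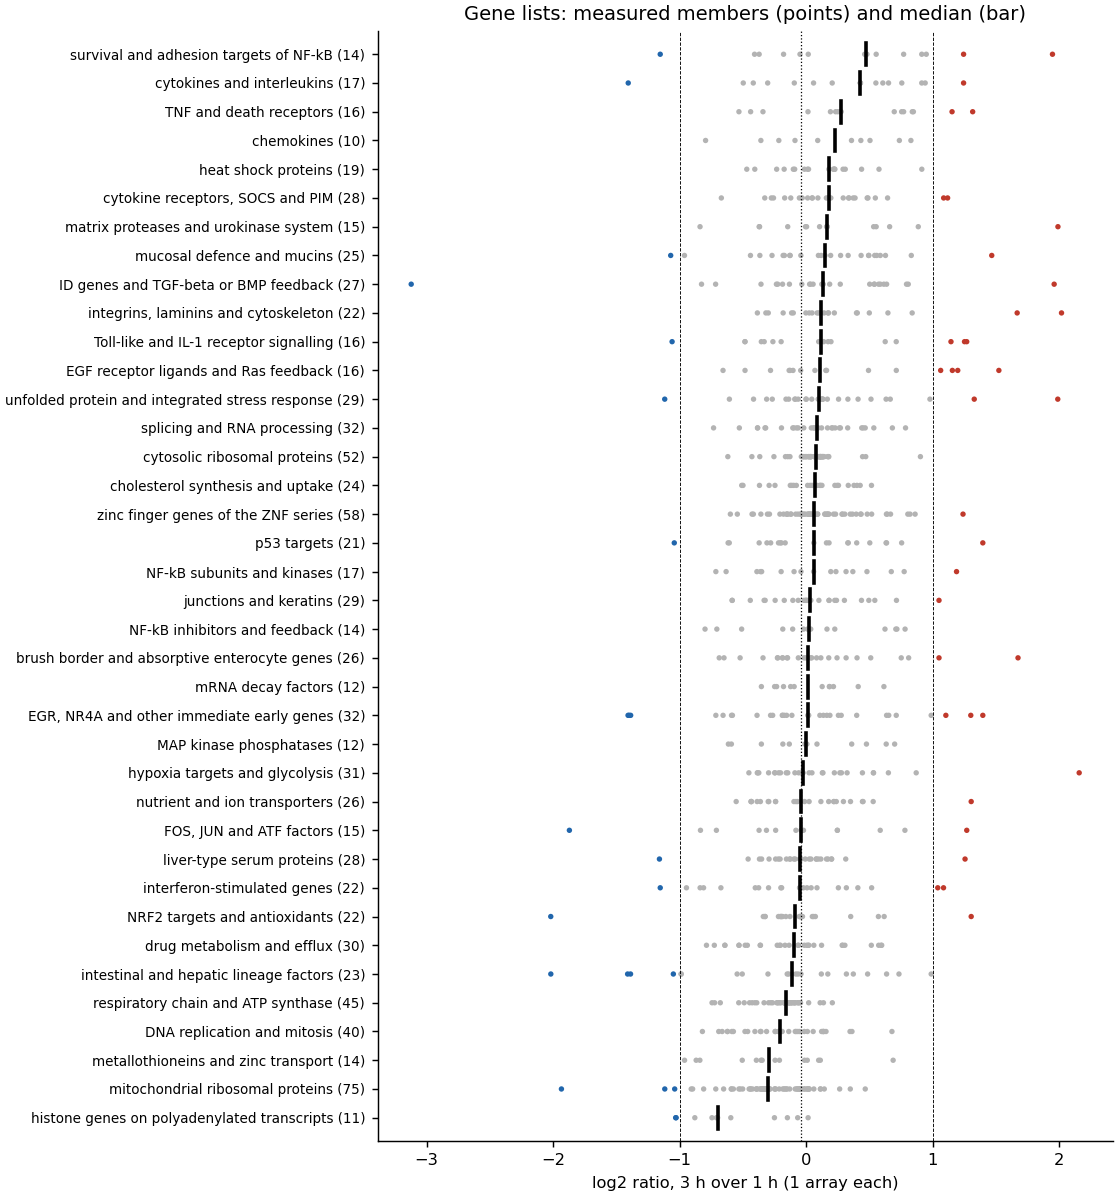
Log2 ratio of 3 h over 1 h for the measured members of 38 gene lists (points; red at least 2-fold higher, blue at least 2-fold lower) with the median of each list (bar), sorted by median; the number of measured members stands in brackets. Dashed lines mark 2-fold and the dotted line the median of all measured genes, -0.04; medians run from -0.70 for histones to 0.47 for survival and adhesion targets of NF-kB.

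Of the 38 lists 12 held no gene past 2-fold. Cholesterol synthesis, heat shock proteins, mRNA decay factors, drug metabolism and splicing were among them, with medians from -0.10 to 0.18. Of 22 measured interferon-stimulated genes OASL and GBP3 rose from below the floor to 33.4 and 34.5, IRF1 fell, and the median was -0.05. Liver-type serum proteins had 1 rise, HP, from 28.1 to 67.1, and 1 fall, SERPINA3, from 36.2 to under the floor. The 14 measured metallothioneins and zinc transporters had a median of -0.30 with no call, or -0.01 with the floor at the 65th percentile. Among 58 measured zinc finger genes ZNF184 alone rose, from 30.3 to 71.5.

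The largest falls outside these lists concerned varied proteins. GRAMD2B had signals of 164, 138, 34.0 and 70.5 at 0, 1, 3 and 6 h. LRRC61 had 53.6, 113, 33.8 and 91.1, an up and down course at low signal. LPCAT1, a lysophosphatidylcholine acyltransferase, went from 193 to 73.6, and MVB12A, a subunit of the ESCRT-I complex, from 100 to 41.1. WNT11, a secreted Wnt ligand, went from 103 to 42.4, and TMEM143 from 117 to 49.2. RNA45SN5, the ribosomal RNA precursor, which is present in many copies, had 75.5, 177, 72.1 and 77.4 at 0, 1, 3 and 6 h. It thus fell from a single high value at 1 h to near its 0 h signal.

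The arrays of 0, 6 and 24 h took no part in the step and hold the same genes. Of the 71 genes that rose, 52 (73.2%) were also at least 2-fold higher at 6 h than at 0 h, where 387 of the 7511 genes (5.15%) were, so that they make up 13.4% of that list. The 6 h over 0 h ratio was above 0 for 70 of the 71 and past 2-fold the opposite way for none, with a median log2 ratio of 1.46 beside -0.11 over all 7511. Of the 60 genes that fell, 31 (51.7%) were at least 2-fold lower at 6 h than at 0 h, beside 450 (5.99%) of all and 6.89% of that list. For 4 of the 60 the ratio was past 2-fold the opposite way, among them ELF3 and KLF10, and for 45 it was below 0. The median over the 60 was -1.03.

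At 24 h over 0 h, 34 of the 71 (47.9%) were at least 2-fold higher, beside 320 (4.26%) of all, of which they are 10.6%, and 24 of the 60 (40.0%) at least 2-fold lower, beside 477 (6.35%), of which they are 5.03%. The medians were 0.90 and -0.71, beside -0.06 over all. For the genes that rose, 1 was at least 2-fold lower at 24 h, and for those that fell 4 were at least 2-fold higher. Against 0 h, the rises were thus at least 2-fold higher more often than not at 6 h. Fewer of both groups were past 2-fold at 24 h than at 6 h. These shares compare arrays of later times with 0 h, and no replicate of the step itself was analysed. They include the change from 0 to 1 h, so they do not show whether the change from 1 to 3 h held. TCIM counts as higher at 6 h, though its 90.9 was below the 126 of 1 h. ELF3 and KLF10 count as opposite, though their 6 h signals, 895 and 1057, were below the 1441 and 2427 of 1 h.

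Other probe sets of the same gene give a second reading from the same arrays. Of the 71 rises 44 had another probe set above the floor on both arrays, and for 38 of these all were on the same side. Of the 60 falls 26 had one, and for 19 all were on the same side. Under each of 8 other ways of processing, 27 of the 71 and 13 of the 60 stayed past 2-fold. The 27 were ABTB2, FAM13A-AS1, HCAR3, HILPDA, MMP1, TNFAIP8, PLXNA2, HKDC1, ITGA2, SGMS2, TMEM133, ZSWIM6, ARRDC3, PLK2, MYO1E, TNFRSF10A, SLC7A11, PHLDA1, NFIL3, FOS, GCNT3, SPRED1, ERRFI1, TNFRSF11B, IL6R, IL4R and KRT20. The 13 were ARRDC4, CDX2, TNFSF10, LPCAT1, ELF3, RNA45SN5, WNT11, RBMXL1, RAB37, ITPKC, OVOL1, PPP1R15A and TFF2. ID1 and TXNIP are not among the 13 since each of their probe sets ends in _s_at and 1 of the alternatives leaves such probe sets out; under the others both stayed past 2-fold.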

How the data were processed

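The authors deposited 1 intensity per probe set and array, linear and not log-transformed. MAS5 made these signals, per the submitters' processing notes, and none of its version, scaling target or detection calls is given in the sources used here. The 2% trimmed mean was 93.7 on each array, so the arrays had been scaled to a common level, total RNA per cell is not measured, and no further scaling was applied.

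Of 54675 probe sets 41091 carried 1 gene symbol, 1801 carried several and were left out, and 10523 of 19775 genes had at least 2 probe sets. Symbols come from GEO's platform annotation, updated through a RefSeq gene table. Signals were floored at 16.2 and log2 taken in Python 3.11.15 with numpy 2.4.6 and pandas 2.3.3. The number of arrays, 1 a time, limits the precision. The size rule was tested on simulated data in which the added changes exceeded 2-fold, so this checks the code and not the rule's error on these arrays.

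Members and the 38 lists (41 with markers) were chosen with earlier results of these data known. The rule for named genes took the 15 largest rises and 15 largest falls among genes whose brighter array reached 100 and, where other probe sets were above the floor, at least 1 moved 1.5-fold the same way. Up to 4 called members of each list and a set of always-named genes were added, 95 in all. Other genes were named after their values were seen. 8 alternatives were tried. List entries without a probe set of their own symbol numbered 110, AREG and HNF4A among them.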

Additional observations from a re-analysis of the deposited data

How the results depend on the processing

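The floor decided the counts over all measured genes. With it at the 30th percentile 1025 genes were at least 2-fold higher and 754 lower, with it at the 65th 85 and 80, and with the floor value added as a pseudocount 126 were lower. Among genes whose brighter array reached 100, the falls numbered 34 with the pseudocount, 34 with the median of all probe sets of a gene and 35 when those with the suffixes _x_at and _s_at were left out, where fewer probe sets or shrunken ratios enter. In quantile normalization, a common median and the probe set chosen on the other 4 arrays, all 4 counts were within 1.5 times the reported ones. The chemokine median was 0.0023 with the floor at the 65th percentile. The median of NF-kB inhibitors was 0.23 and that of EGF receptor ligands and Ras feedback 0.56 without _x_at and _s_at probe sets, and that of MAP kinase phosphatases 0.20 over the median of probe sets. Of 304 list medians 14 moved by more than 0.2. Of 710 values of named genes 72 moved by more than the spread between probe sets and 1 changed direction, ITGB8, at -0.22 with the median over probe sets. The causes were not tested. No paired analysis was possible because there is 1 array at each time. Signals near the floor limit what can be read: below 64 the spread between probe sets was 0.37 or more on the log2 scale.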
